A study of Arabidopsis thaliana with 2 samples.

Results

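The 60 genes described here encode proteins of the cytosolic 40S and 60S ribosomal subunits of Arabidopsis thaliana, 15 of them for the small and 45 for the large subunit. They were chosen by gene identifier, paralogs included, and looked up in a deposited table that lists genes differing between ago1-27 and wild-type plants. The table held 4 of the 60: RPS18C (AT4G09800), RPP1A (AT1G01100), RPL7C (AT2G44120) and RPL14B (AT4G27090). This was 6.67% of the chosen genes, against 23.7% of all annotated protein-coding genes (6525 of 27562). On the deposited scale all 4 were higher in ago1-27, a direction shared by 69.4% of the table's rows, with ratios between 1.52 and 1.59; with the median ratio of the table set to 1, 0 of the 4 stayed above 1.

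The mutant ago1-27 carries, in all its cells, a weak loss-of-function allele of ARGONAUTE1 (AGO1), the main microRNA effector protein, and was set against wild type. Both genotypes were grown in soil at 20 °C in long days (light for 16 h, dark for 8 h), and total RNA came from tissue labelled as flower buds. The sources used here do not give plant age. The labels describe 3 biological replicates in each genotype, but the table gives 1 RPKM value per genotype (reads per kilobase of transcript, scaled to mapped reads), so no value below has an SD, a p-value or a replicate check. Steps between low values gave library sizes of 11407616, 12164864 and 12294210 reads for ago1-27 and 10453032, 11196495 and 13887069 reads for wild type. The 95% intervals below are exact binomial intervals on the reads of 1 library of mean size, so they reflect counting error alone. Intervals on the reads of all 3 libraries would be narrower and were not computed.

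The table held 6791 rows, 4711 higher and 2080 lower in ago1-27. The lowest ratio above 1 was 1.5001 and 1 row lay between the 1.5-fold limits, so an unlisted gene may have differed by less or may have been left out by an unstated rule. AGO1 itself stood at 175 RPKM in ago1-27 and 53.1 RPKM in wild type, which does not check the genotype, since the allele leaves the transcript in place. Of 9 floral identity genes looked up to check the tissue label, 3 were listed. AP1 was at 0.733 RPKM in ago1-27 and 0.0779 in wild type, LFY at 1.17 and 0.151, and SEP4 at 6.22 and 12.5. RCA, the Rubisco activase of photosynthetic tissue, had 3389.9 RPKM in ago1-27 and the table's highest wild-type value, 5341 RPKM. AP1 and LFY thus lay near 0 in both genotypes, which goes against the label of flower buds, while SEP4 was present in both. In a library of mean size AP1 had about 14 reads in ago1-27 and 1 in wild type, and LFY about 19 and 2. Both LFY values equal whole reads of 1 library, so they may not stand for all replicates. The floral genes outside the table could not be checked. The part of tissue makeup in the results below was not tested. In such bulk tissue, a change in the number of cells of a type and a change in RNA per cell cannot be told apart.

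Cytosolic ribosomes translate the messages of the nuclear genome. Their small 40S subunit binds mRNA and decodes it, while the large 60S subunit joins the amino acids and carries the exit tunnel and the stalk that recruits elongation factors. In Arabidopsis nearly every ribosomal protein is encoded by a small family of paralogs, whose transcripts are abundant in dividing and growing tissue such as young buds and are promoted by the TOR kinase pathway. Promoters of plant ribosomal protein genes are known for the telo box, AAACCCTAA, and for site II elements, TGGGCC and TGGGCT, which TCP-type factors bind.

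The 250 bases before the annotated start of the 4 listed genes show how these elements are placed in members that share a direction. They were read from the RefSeq genome, build TAIR10.1, and are written 5′ to 3′ on the gene's strand, with site II elements of either strand in capitals. RPS18C has the window chr4:6173462-6173711 (+ strand), RPP1A chr1:51211-51460 (− strand), RPL7C chr2:18251157-18251406 (− strand) and RPL14B chr4:13595253-13595502 (− strand).
RPS18C: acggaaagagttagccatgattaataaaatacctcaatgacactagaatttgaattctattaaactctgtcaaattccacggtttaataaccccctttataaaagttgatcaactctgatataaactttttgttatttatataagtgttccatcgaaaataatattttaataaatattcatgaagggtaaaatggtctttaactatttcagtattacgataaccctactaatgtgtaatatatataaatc
RPP1A: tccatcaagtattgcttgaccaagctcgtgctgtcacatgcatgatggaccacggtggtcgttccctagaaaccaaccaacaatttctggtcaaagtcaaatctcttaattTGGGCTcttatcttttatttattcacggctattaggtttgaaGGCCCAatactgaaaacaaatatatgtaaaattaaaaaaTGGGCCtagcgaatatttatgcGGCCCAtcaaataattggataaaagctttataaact
RPL7C: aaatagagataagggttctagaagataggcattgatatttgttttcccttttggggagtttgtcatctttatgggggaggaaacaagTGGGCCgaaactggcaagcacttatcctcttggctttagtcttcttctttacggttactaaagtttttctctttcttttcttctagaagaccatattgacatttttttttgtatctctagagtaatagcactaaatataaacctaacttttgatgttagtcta
RPL14B: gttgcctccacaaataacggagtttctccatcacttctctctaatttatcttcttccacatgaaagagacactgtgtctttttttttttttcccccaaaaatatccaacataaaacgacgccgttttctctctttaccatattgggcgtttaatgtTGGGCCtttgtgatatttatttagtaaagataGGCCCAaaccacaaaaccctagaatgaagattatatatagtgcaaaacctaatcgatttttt

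These windows differ in their elements. RPP1A had 4 site II elements, 3 TGGGCC and 1 TGGGCT, whose first letters lay 139, 97, 58 and 36 bases before the start. RPL14B had 2 TGGGCC, 94 and 62 bases before the start, and RPL7C had 1, at 163 bases. RPS18C had none, and no window of the 4 held AAACCCTAA. By ratio the order was RPL14B, RPP1A, RPL7C and RPS18C, but the intervals of the 4 ratios, given below, overlapped one another. A link between number of elements and ratio was not tested.

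RPS18C was the 1 small-subunit gene of the 15 in the table. RPS18 sits in the head of the 40S subunit, near the transfer RNAs and a bridge to the large subunit. The gene lies on chromosome 4 from 6173712 to 6175200 (+ strand, TAIR10.1) and had 190.1 RPKM in ago1-27, against 125 RPKM in wild type. Those values correspond to about 1822 and 1189 reads of a library of mean size and to a ratio of 1.52 (95% interval 1.41 to 1.63). The gene overlaps by 25 bases with AT4G09810 on the opposite strand, which the table does not list, and the libraries do not keep strand.

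The 3 large-subunit genes in the table serve different sites of the 60S subunit. RPP1A encodes an acidic P1 protein of the stalk, which contacts the elongation factors. It lies on chromosome 1 from 49909 to 51210 (− strand) and had 232 RPKM in ago1-27 and 148 RPKM in wild type, about 2240 and 1412 reads, a ratio of 1.57 (1.47 to 1.68). RPL7C, on chromosome 2 from 18248830 to 18251156 (− strand), encodes an RNA-binding protein of the 60S body. RPL7C had 104 RPKM in ago1-27 and 67.0 RPKM in wild type, about 1902 and 1215 reads, a ratio of 1.55 (1.44 to 1.67). RPL14B, on chromosome 4 from 13593844 to 13595252 (− strand), encodes a protein of the outer 60S surface. It was the most abundant of the 4, with 394 RPKM in ago1-27 and 248 RPKM in wild type, about 3438 and 2142 reads, a ratio of 1.59 (1.51 to 1.68).

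The 4 genes thus stood apart in level but close together in ratio. The 4 intervals overlapped one another, and 3 of them reached below 1.5, the limit of the table. All 4 lay above 1, which listing at about 1.5-fold largely fixed at such read counts. On the log2(RPKM + 1) scale the differences were 0.60 for RPS18C, 0.65 for RPP1A, 0.63 for RPL7C and 0.67 for RPL14B. Their median was 0.64, against 0.62 for all rows compared and 0.70 for those higher in ago1-27. As plain ratios, without the pseudocount, all 4 lay below the median of all rows, 1.62. None of the 4 reached a difference of 1, which 11.3% of rows compared reached upwards (748 of 6606, among rows reaching 1 RPKM in a genotype). Summed, they held 919.8 RPKM in ago1-27 and 587 RPKM in wild type.

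Their direction rests on the deposited scale. Setting the median ratio of all rows, 1.62, to 1 placed every listed ratio below 1.62 under 1. The 4 ratios then became 0.936 for RPS18C, 0.968 for RPP1A, 0.956 for RPL7C and 0.980 for RPL14B. Quantile normalization, which brought the median ratio of all rows to 1.30, kept all 4 above 1, at 1.58 for RPS18C, 1.62 for RPP1A, 1.58 for RPL7C and 1.66 for RPL14B. All 4711 rows higher in ago1-27 stayed above 1 under it, so this outcome is not particular to the 4. The first rescaling presumes that most genes are alike, and the second that both genotypes have the same distribution of values. Rows picked for a difference break the first premise and need not meet the second. Genes outside the table could enter neither rescaling.

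**Figure D1:**
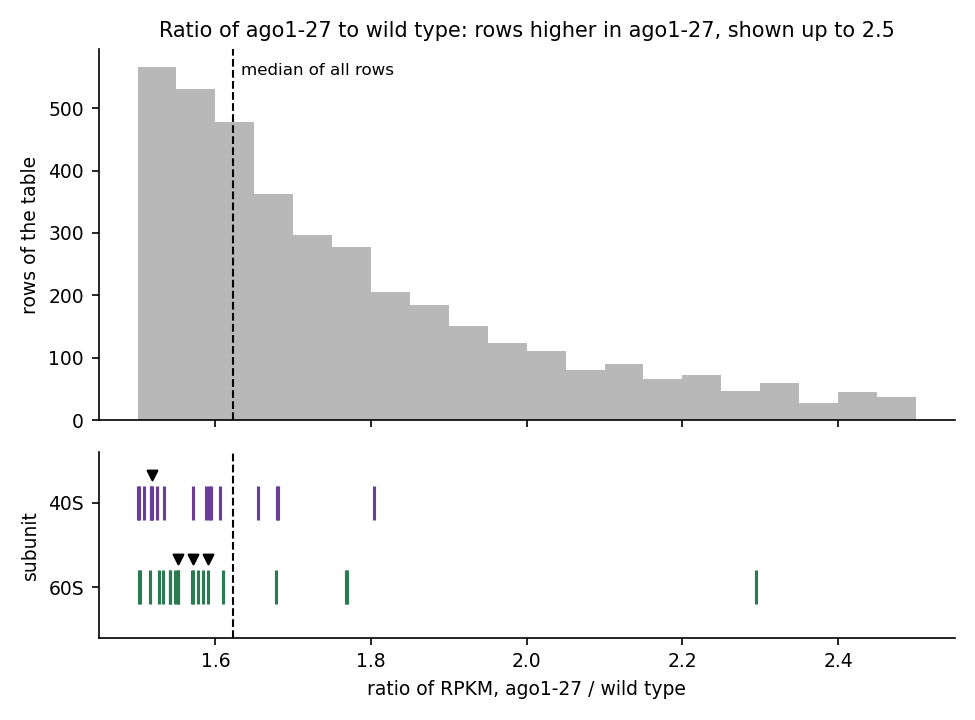
Above, the number of table rows (y axis) by ratio of RPKM, ago1-27 over wild type (x axis, rows higher in ago1-27 shown up to 2.5); below, each listed 40S and 60S gene as a line, with triangles over the 4 chosen genes. The ratios of RPS18C, RPL7C, RPP1A and RPL14B, 1.52 to 1.59, lie left of the dashed median of all rows at 1.62, so they fall below 1 when that median is set to 1; RPP2C at 28.3 is off the axis.

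The other 56 chosen genes have no value in the table. Absent from the small subunit were RPS3A, RPS5A, RPS5B, RPS9B and RPS9C, whose proteins line the path of the mRNA, and RPS6A and RPS6B, which encode the substrate that S6 kinases phosphorylate downstream of TOR. RPS8A, RPS10B, RPS11A, RPS13B, RPS27A, RPS18A and RPS18B were absent too. From the large subunit, RPP0A, RPP0B and RPP0C, which encode the anchor of the stalk, and RPL12A, RPL12B and RPL12C of the stalk base were absent. So were RPL3A, RPL3B, RPL8A, RPL8C, RPL10A, RPL10B and RPL10C, whose proteins lie near the peptidyl transferase centre, and RPL4A, RPL4D, RPL23aA and RPL23aB of the exit tunnel. RPL5A and RPL5B, whose protein carries the smallest ribosomal RNA into the subunit, RPL10aA and RPL10aB of the stalk that moves with the exit-site tRNA, and the bridge-forming RPL24A and RPL24B were absent as well. The remaining absent genes were RPL6A, RPL6B, RPL6C, RPL7A, RPL7B, RPL7aA, RPL7aB, RPL9B, RPL9C, RPL9D, RPL13B, RPL13aA, RPL13aB, RPL13aC, RPL13aD, RPL14A, RPL18B, RPL18C and RPL27aC.

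The listed share was the same in both subunits, 1 of 15 small-subunit genes and 3 of 45 large-subunit genes, each 6.67%. The chosen genes come from 30 protein families, of which 5 had a listed gene, counting RPL13D, which is not among the 60. No chosen gene was listed as lower in ago1-27.

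In each of their families, the listed genes had close copies outside the table. RPS18C encodes a protein identical to those of RPS18A and RPS18B (100% over 152 residues), and neither of these was listed. RPL14B and the absent RPL14A differ more, at 93.3% identity. RPP1A is 98.2% identical to RPP1C and 92.0% to RPP1B, also absent. RPL7C is 89.5% identical to the absent RPL7B and 41.9% to the absent RPL7A, while RPL7D, 89.1% identical to RPL7C and not among the 60, was listed.

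Reads of 50 nt can in principle be shared by such copies. None of the 50-base stretches in the annotated transcripts of RPS18C, RPL7C and RPL14B occurred in another gene, and 0.111% of those of RPP1A did, all in RPP1C (AT5G47700). Within the annotated transcripts, the values of the 4 genes rest almost wholly on sequence that their paralogs lack, although the treatment of multiply mapped reads by the authors is unstated.

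The other genes of the cytosolic ribosome were taken from a list of 230 genes in 80 families, which contains the 60. Of the 170 not among the chosen genes, 34 were listed (20.0%), 16 of 79 for the 40S subunit (20.3%) and 18 of 91 for the 60S subunit (19.8%). Both shares lie nearer the 23.7% of all protein-coding genes than the 6.67% of the chosen genes does. All 34 were higher in ago1-27 on the deposited scale, like the 4 chosen genes, so that 38 of 38 listed cytosolic ribosomal protein genes shared 1 direction, against 69.4% of all rows. The shared direction depends on that scale. After the median of ratios was set to 1, 9 of the 38 remained above 1. These are the genes with a ratio above 1.62, the median of rows that were picked for a difference. After quantile normalization 38 remained above 1, as did all 4711 rows higher in ago1-27.

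Most ratios of the 38 lay near the table's limit, and the highest were 28.3 for RPP2C and 2.29 for RPL41C. Their median was 1.57, beside 1.77 for the 4711 rows higher in ago1-27. Of the 38, 27 lay under 1.6 and 33 under 1.7, compared with 1097 and 1938 of those 4711 rows. For the 40S subunit the median log2(RPKM + 1) difference was 0.61 over 17 genes and for the 60S subunit 0.65 over 21 genes, set against 0.62 for all rows. The order of the subunits came with the pseudocount: the median ratios were 1.572 for the 40S and 1.570 for the 60S subunit, and with a pseudocount of 0.1 the log2 medians were 0.652 and 0.651. The interval of every one of the 38 lay above 1, which listing at about 1.5-fold largely fixed. That of 33 reached below 1.5, so on the reads of 1 library most could not be placed clear of the table's own limit. Their summed level was 5841 RPKM in ago1-27 and 3740.3 RPKM in wild type, a ratio of 1.56.

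**Figure D2:**
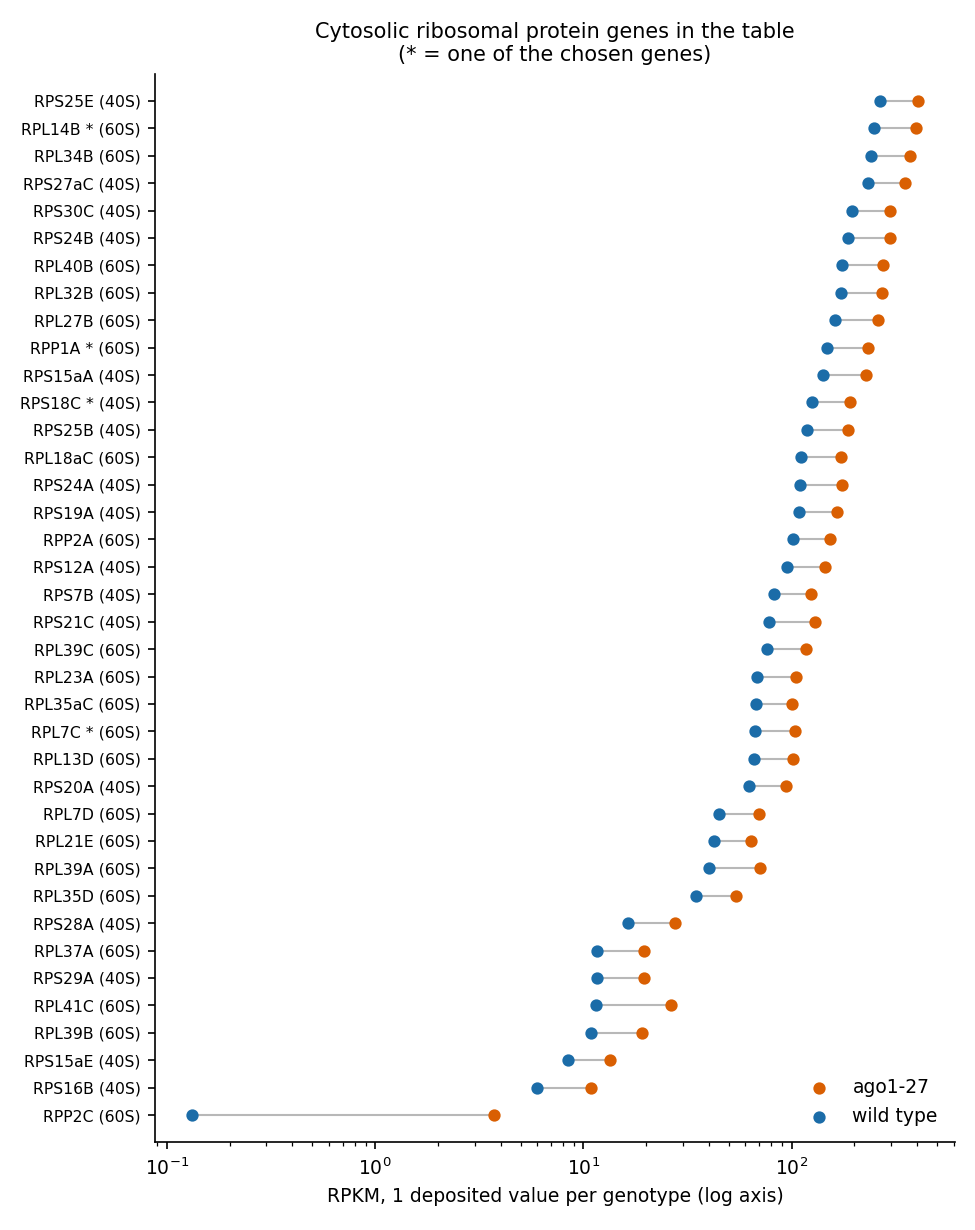
RPKM on a log axis (x) in ago1-27 (orange) and wild type (blue) for each of the 38 listed cytosolic ribosomal protein genes (y), ordered by wild-type level, with 1 deposited value per genotype and an asterisk on the 4 chosen genes. On this deposited scale every ago1-27 point lies right of its wild-type point, a direction that 9 of the 38 kept when the median of ratios was set to 1; RPP2C at the bottom has the widest gap.

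Among small-subunit genes the highest levels were those of RPS25E, RPS27aC and RPS30C. RPS25E (AT4G39200) had 406 RPKM in ago1-27 and 265 RPKM in wild type. RPS27aC (AT3G62250), which encodes a ubiquitin fused to a 40S protein, had 351 RPKM in ago1-27 and 233 RPKM in wild type. RPS30C (AT5G56670) had 296 RPKM in ago1-27 and 195 RPKM in wild type, but 12.8% of its 50-base stretches occur in other genes. The 3 ratios were 1.53, 1.51 and 1.52, close to that of RPS18C.

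In the large subunit RPL14B led, followed by RPL34B and RPL40B. RPL34B (AT1G69620) had 370.5 RPKM in ago1-27 and 242 RPKM in wild type, a ratio of 1.53. RPL40B (AT3G52590), also made as a ubiquitin fusion, had 275 RPKM in ago1-27 and 174 RPKM in wild type, a ratio of 1.58. The most abundant genes of both subunits thus lay at ratios between 1.51 and 1.59.

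The lowest ratios stood at the edge of the table. In the 40S subunit these were RPS20A (AT3G45030), at 93.7 RPKM in ago1-27 and 62.5 RPKM in wild type, RPS7B (AT3G02560), at 123 and 82.2, and RPS27aC. In the 60S subunit they were RPL35aC (AT1G74270), at 101 RPKM in ago1-27 and 67.2 RPKM in wild type, RPL21E (AT1G57660), at 63.7 and 42.4, and the stalk gene RPP2A (AT2G27720), at 153 and 101. Their ratios ran from 1.5002 to 1.516. RPL21E shares 32.9% of its 50-base stretches with other genes, so its value is uncertain.

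In the small subunit the highest ratios belonged to genes of low level. RPS16B (AT3G04230) had 10.8 RPKM in ago1-27 and 6.01 RPKM in wild type, a ratio of 1.80 (1.34 to 2.46). RPS28A (AT3G10090), at 27.4 RPKM in ago1-27 and 16.3 RPKM in wild type, and RPS29A (AT3G43980), at 19.5 and 11.6, both had a ratio of 1.68. All 3 intervals included the ratios of the abundant genes above, so on the reads of 1 library they could not be told apart from them.

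Of the 38, 2 genes reached a log2(RPKM + 1) difference of 1, both of the large subunit, beside 11.3% of all rows compared. RPP2C (AT3G28500, chromosome 3, 10682029 to 10682979), a P2 copy of the stalk, had 3.73 RPKM in ago1-27 and 0.132 RPKM in wild type. That is about 42 reads in ago1-27 and about 1 read in wild type, and a ratio of 28.3 (7.07 to 1682). RPL41C (AT2G40205, chromosome 2, 16792175 to 16792622), for the smallest ribosomal protein, had 26.2 RPKM in ago1-27 and 11.4 RPKM in wild type, a ratio of 2.29 (1.62 to 3.31). RPL41C overlaps AT2G40200 on the opposite strand by 202 bases and shares 51% of its 50-base stretches with other genes, and the libraries do not keep strand. Its value is therefore uncertain as a measure of RPL41C. Its log2(RPKM + 1) difference of 1.13 became 0.47 with the median of ratios set to 1 and 0.86 after quantile normalization, which ends the call, while RPP2C kept its call under both and fell out of the comparison where 5 RPKM was required.

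Where more than 1 copy of a family was listed, shares are given among the listed copies. Listing required a difference of about 1.5-fold and all listed copies lay on the same side, so similar shares in both genotypes follow largely from the table's limit, and copies outside the table are missing from them. RPL7C and RPL7D made up 59.97% and 40.03% of their summed RPKM in ago1-27, against 59.8% and 40.2% in wild type. RPL7D (AT3G13580) itself had 69.4 RPKM in ago1-27 and 45.0 RPKM in wild type. For RPS24A (AT3G04920) and RPS24B (AT5G28060) the shares were 37.1% and 62.9% in ago1-27 and 37.0% and 63.0% in wild type. RPS25B (AT2G21580) and RPS25E held 31.5% and 68.5% in ago1-27 and 30.9% and 69.1% in wild type. RPS15aA (AT1G07770) held 94.4% in both genotypes beside RPS15aE (AT4G29430), a divergent copy with 53.8% identity. RPS15aE is 92.2% identical to the unlisted RPS15aB, and whether its protein belongs to the cytosolic ribosome was not checked.

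In 2 families the listed ratios lay further apart. Of the listed RPL39 copies, RPL39A (AT2G25210) held 34.2% in ago1-27 and 31.4% in wild type, and RPL39C (AT4G31985) held 56.5% in ago1-27 and 60.1% in wild type. RPL39A had 70.8 RPKM in ago1-27 and 40.01 RPKM in wild type, a ratio of 1.77 (1.47 to 2.12), and RPL39C had 117 and 76.5, a ratio of 1.53 (1.371 to 1.702). These intervals overlap. RPL39B (AT3G02190), at 19.2 RPKM in ago1-27 and 10.9 RPKM in wild type, shares 19.8% of its 50-base stretches with other genes and overlaps AT3G02200 by 148 bases. Of the stalk pair, RPP2C held 2.37% in ago1-27 and 0.130% in wild type, with RPP2A as the remainder. RPS24 and RPL39 were the 2 families with all copies listed, 25 families had 1 listed copy, and 49 of the 80 had none.

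Among abundant transcripts the family stood on 1 side of the table on the deposited scale. Of the 38 listed genes, 26 had at least 50 RPKM in wild type, and all 26 were higher in ago1-27, with ratios from 1.5002 to 1.655 and a median of 1.55. Outside the family, 171 of 539 rows at that level were higher (31.7%), with a median ratio of 1.63 among those 171 and a maximum of 5.49. The family supplied 26 of the 197 rows at that level that were higher (13.2%) and 0 of the 368 that were lower. It makes up 26 of all 565 rows at that level, and 0.56% of rows at any level. With the median of ratios set to 1, 1 of the 26 family genes and 87 of the 539 other rows were above 1. The medians became 0.953 for the 26 family genes and 0.379 for the 539 other rows, of which 368 were listed as lower. That rescaling divides every ratio by the same value, so it could not change the order of these medians. Below 50 RPKM, the 12 remaining genes had a median ratio of 1.68. Across genes, Spearman's rho between wild-type level and ratio was -0.39 over the 38 genes and -0.59 over the 4711 rows higher in ago1-27. Genes are not independent replicates, and the wild-type value enters both measures.

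**Figure D3:**
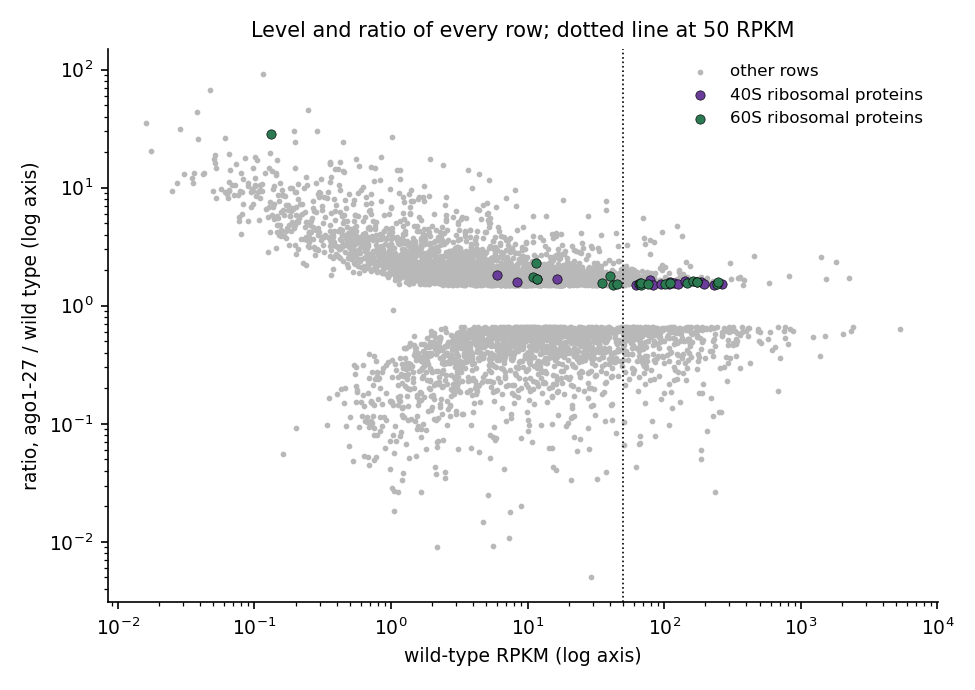
Wild-type RPKM (x, log axis) and ratio of ago1-27 to wild type (y, log axis) for every row, with listed 40S genes in purple, 60S genes in green and other rows in grey. Right of the dotted line at 50 RPKM, the 26 ribosomal protein genes lie between 1.5002 and 1.655 on the deposited scale, while 1 of the 26, and 87 of the 539 other rows at that level, stays above 1 when the median of ratios is set to 1; the empty band around 1 is the table's own limit.

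Listed genes of the family encoded somewhat shorter proteins than unlisted ones, with medians of 130 and 152 residues and overlapping ranges. Among family genes that were not chosen, the medians were 129.5 and 140 residues. The 60 chosen genes encode longer proteins than the rest of the family, with a median of 207 residues against 134, and the 4 in the table had a median of 143. Of all 230 genes, 9 of 31 encoding fewer than 100 residues were listed (29.0%), as were 21 of 86 with 100 or more but fewer than 150 (24.4%). The share was 5 of 52 from there to fewer than 200 (9.62%) and 3 of 61 with 200 or more (4.92%). Over all annotated protein-coding genes the order was the opposite, at 14.0%, 19.2%, 23.1% and 25.3% for the same lengths. Of the chosen genes, 20 fall in the class from 150 to fewer than 200 residues and 35 in the class of 200 or more, with 1 listed in each. Proteins of the longer classes include those of RPL3, RPL4, RPL5 and RPP0, none of them listed. The part of length in the low listed share of the chosen genes was not tested.

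**Figure D4:**
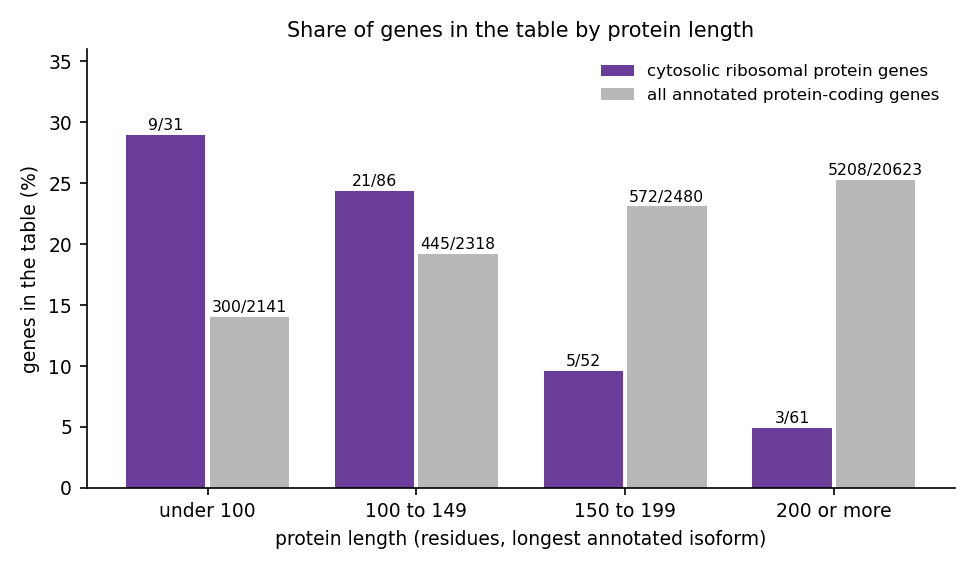
Share of genes in the table (y, percent) by length of the longest annotated protein (x, residues) for cytosolic ribosomal protein genes (purple) and all annotated protein-coding genes (grey), with counts above the bars. The purple bars fall from 29.0% under 100 residues to 4.92% at 200 or more, while the grey bars run from 14.0% to 25.3%.

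Promoter elements occurred at close shares in listed and unlisted genes of the family. Over windows from 250 bases before to 50 after the start, on either strand, TGGGCC or TGGGCT occurred in 51 of the 60 chosen genes (85.0%), in 28 of the 38 listed family genes (73.7%) and in 76.6% of the 192 family genes that were not listed. All protein-coding genes held it in 21.7% of windows and all table rows in 22.9%. AAACCCTAA occurred in 19 of the chosen genes (31.7%), in 11 of the listed family genes (28.9%) and in 27.1% of the unlisted ones, with 3.61% over all protein-coding genes and 2.62% over all table rows. Most AAACCCTAA matches lay after the annotated start: in the 250 bases before it, 5 of the chosen genes (8.33%) and 3 of the listed family genes (7.89%) had one. A match is a run of letters and not a shown binding site.

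Both kinds of element stood together before the start in 2 of the 38 listed genes, RPS21C and RPL27B, picked after their sequences were seen and shown beside the 4 windows above as an example of the arrangement. The windows are chr5:9808514-9808763 (− strand) for RPS21C and chr3:7844598-7844847 (− strand) for RPL27B, from RefSeq TAIR10.1, with both kinds of element in capitals.
RPS21C: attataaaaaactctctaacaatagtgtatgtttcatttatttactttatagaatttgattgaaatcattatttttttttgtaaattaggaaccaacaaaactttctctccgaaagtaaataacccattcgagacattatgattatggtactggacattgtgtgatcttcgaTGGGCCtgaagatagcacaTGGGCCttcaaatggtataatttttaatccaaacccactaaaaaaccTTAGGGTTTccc
RPL27B: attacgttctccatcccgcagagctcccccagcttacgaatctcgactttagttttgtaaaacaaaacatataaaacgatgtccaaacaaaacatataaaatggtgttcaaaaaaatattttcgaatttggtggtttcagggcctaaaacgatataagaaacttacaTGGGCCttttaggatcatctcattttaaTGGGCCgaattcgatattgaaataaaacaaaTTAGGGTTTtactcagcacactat

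In both genes the AAACCCTAA match is on the opposite strand and so reads TTAGGGTTT here, with 2 TGGGCC before it. Its first letter lay 12 bases before the start in RPS21C and 24 in RPL27B. RPS21C (AT5G27700), of the 40S subunit, had 129 RPKM in ago1-27 and 78.1 RPKM in wild type, a ratio of 1.65 (1.498 to 1.831). RPL27B (AT3G22230), of the 60S subunit, had 261 RPKM in ago1-27 and 162 RPKM in wild type, a ratio of 1.61 (1.523 to 1.702). RPS18C, which holds neither element, lay at 1.52 with an interval that overlaps both. Whether the elements go with the ratio was not tested.

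**Figure D5:**
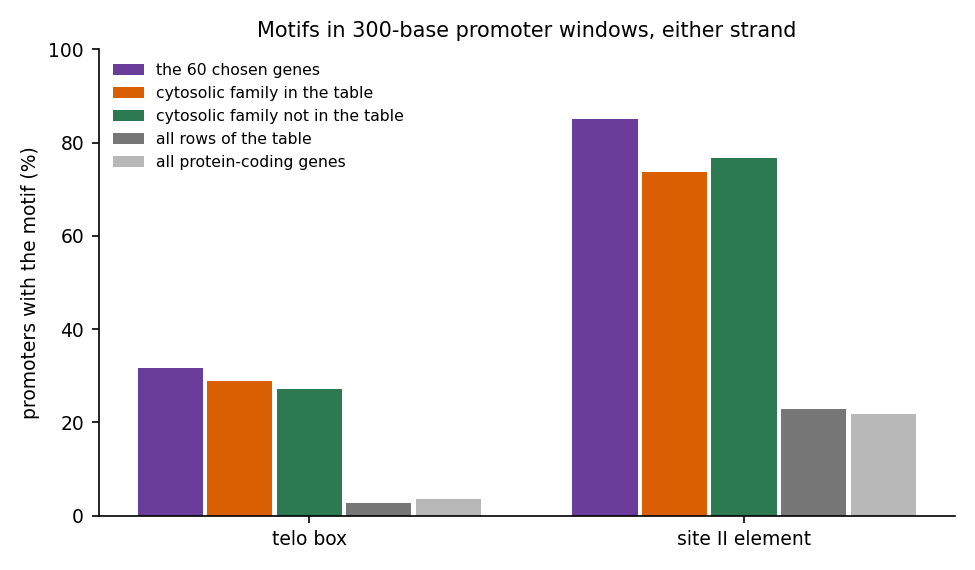
Share of promoter windows of 300 bases (y, percent) that hold the telo box or a site II element on either strand (x), for the 60 chosen genes, listed and unlisted genes of the cytosolic family, all table rows and all protein-coding genes. Bars of listed and unlisted family genes are close, at 28.9% and 27.1% for the telo box and 73.7% and 76.6% for the site II element, far above the 3.61% and 21.7% of all protein-coding genes.

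Genes that work with the ribosome were listed in both directions, as were all rows, of which 69.4% were higher in ago1-27. Each list below had a smaller listed share than the 23.7% of all protein-coding genes. Of 40 translation factor genes 4 were in the table (10%), 3 higher (75%) and 1 lower in ago1-27 on the deposited scale. With the median of ratios set to 1, 2 stayed higher. The highest ratio was that of eIF5A3 (AT1G69410), which promotes elongation and peptide release, at 53.1 RPKM in ago1-27 and 31.1 RPKM in wild type (ratio 1.71). The lowest was that of eEF1Bb1 (AT5G12110), a nucleotide exchange subunit of elongation factor 1, at 5.75 RPKM in ago1-27 and 8.75 RPKM in wild type (ratio 0.657). Its paralog eEF1Bb2 (AT5G19510), named after its value was seen, went the other way at 289 RPKM in ago1-27 and 189 RPKM in wild type (ratio 1.53), near RPL40B in level; its ratio became 0.941 with the median of ratios set to 1.

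Of 37 ribosome assembly factors 3 were listed (8.11%), 2 higher (66.7%) and 1 lower, of which 1 stayed higher after that rescaling. XRN2 (AT5G42540), an exonuclease of ribosomal RNA processing, had 47.3 RPKM in ago1-27 and 25.1 RPKM in wild type (ratio 1.88), and FIB2 (AT4G25630), a fibrillarin of the nucleolus, had 9.96 and 15.3 (ratio 0.652). Of 6 TOR pathway genes S6K2 (AT3G08720) alone was listed, a kinase of RPS6, at 10.4 RPKM in ago1-27 and 17.6 RPKM in wild type (ratio 0.591). None of 33 plastid ribosomal protein genes was in the table. None of these listed genes reached a log2(RPKM + 1) difference of 1. With 1 value per genotype, no test of the difference between these lists and the cytosolic ribosomal proteins was possible.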

How the data were processed

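RNA from ago1-27 and wild-type tissue labelled as flower buds was sequenced, per the labels' protocols, as single-end reads of 50 nt without strand information. The submitters' processing notes name TopHat2 2.0.11 and the build TAIR10. How reads were counted, how replicates were combined and which rule listed a gene is not given in the sources used here, nor is the handling of multiply mapped reads. The authors' deposited table holds, per the file headers, 1 RPKM value per genotype and their ratio, which differed from the quotient of both values by a relative 4.17e-08 or less.

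With no replicate values the branch of the design without a test was used: direction, ratio and the difference in log2(RPKM + 1), called from an absolute difference of 1 upwards in rows reaching 1 RPKM in a genotype. The pseudocount understates changes of low genes. The members and lists were chosen with earlier results of these data known. The family list of 230 genes (1 pseudogene left out), the lists of translation factors, assembly factors, TOR pathway and plastid ribosomal proteins were written from general knowledge. Of the table's identifiers, 6772 were found in the RefSeq annotation TAIR10.1 and 19 were not. Named genes were those in the table that were chosen, passed the threshold, had the 3 highest or lowest ratios or the 3 highest RPKM of a subunit, or shared a family with another listed gene; of other lists, the highest and lowest ratio. Others are said to be chosen after their values were seen. Levels at one point were split at 50 RPKM, also after seeing the data.

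Library totals between 8000000 and 20000000 were searched for those that turn low values into whole reads. For ago1-27 the 3 totals turned 11 to 21 genes whole, against 9 at the next best total, so the weakest of them, 12164864, is uncertain; for wild type they turned 16 to 20 genes whole, against 10. Estimated reads are the product of RPKM, the longest TAIR10.1 transcript and the mean total, 11955563 for ago1-27 and 11845532 for wild type. Intervals are exact Clopper-Pearson at 95%. The threshold count and library search were tested on simulated data. Promoters are 250 bases before to 50 after the gene start; protein identity is over global alignments (BLOSUM62). Tried as alternatives were a pseudocount of 0.5 or 0.1, all rows, rows reaching 5 RPKM, the median of ratios, quantile normalization, a threshold of 1.5-fold and promoters without the bases after the start; added after seeing the data were no pseudocount and leaving out rows from 1 library per genotype. Tools were Python 3.11.15 with biopython 1.88, matplotlib 3.10.9, pandas 2.3.3, numpy 2.4.6, numba 0.67.0 and scipy 1.17.1.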

Additional observations from a re-analysis of the deposited data

How the results depend on the processing

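Setting the median of ratios to 1 changed directions most. The chosen genes above 1 became 0 of 4 and their median log2 difference -0.055 (0.64 as reported). In the whole family, 9 of 38 stayed above 1 with a median of -0.046, 4 of 17 for the 40S subunit (-0.046) and 5 of 21 for the 60S subunit (-0.047), and 1 of 3 assembly factors stayed above 1. Under this setting, under quantile normalization and at RPKM of at least 5, the family had 1 gene past the threshold in place of 2, also 1 for the 60S subunit. A threshold of 1.5-fold on the log2(RPKM + 1) scale called 4 chosen genes, 34 of the family, 15 of the 40S and 19 of the 60S subunit, where a difference of 1 called 0, 2, 0 and 2. Counting motifs before the gene start alone gave AAACCCTAA in 5 chosen genes (19 as reported) and 3 listed family genes (11), and both kinds of element in 5 (17) and 2 (10). Over all groups and alternatives, 23 values moved by more than 1.5 times (counts) or beyond the counting margin of their genes (medians), and 150 stayed within these limits, some of them with smaller changes. Of the values for single genes, 42 moved beyond their counting margin and 261 did not. On the reads of 1 library of mean size, 33 of 38 intervals include the table's limit of 1.5. No paired analysis was possible because the table has 1 value per genotype; for the same reason no replicate could be left out.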
